A study of Homo sapiens with 8 samples.

Results

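Vehicle-treated HepG2 cells were compared with vehicle-treated LX2 cells, using the 4 control arrays of a series of 8 human arrays. The members are the arrays whose titles name the control condition, 2 of HepG2 and 2 of LX2, and every gene with a named probe set was examined in them. HepG2 is a hepatocellular carcinoma line that grows as epithelial cells. LX2 is an established line of human hepatic stellate cells, the vitamin A storing pericytes of the liver sinusoid. Control cells of both lines received 0.1% DMSO for 48 h, although another label field gives their treatment as none. HepG2 was kept in medium with 10% fetal bovine serum and LX2 in medium with 2%, both with the same antibiotics, so line and serum cannot be told apart in any difference given here. The other 4 arrays hold the same lines after 48 h with 400 nM CM272, a compound that blocks both G9a, which methylates histone H3, and DNMT1, which methylates DNA. Each line stems from 1 person, and the labels do not say that the arrays of a line came from separate cultures. The p-values therefore measure only the spread between these samples.

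Hepatocytes are polarised epithelial cells that make most plasma proteins, assemble lipoproteins and clear nitrogen through the urea cycle. Stellate cells lie beside them and, in injured liver, turn into contractile myofibroblasts that lay down and remodel scar matrix. Hepatoma lines keep part of the hepatocyte program and add genes of the fetal liver, while stellate lines in culture resemble activated cells.

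Values are log2 expression values of Affymetrix whole-transcript arrays, summarised per probe set, and n is 2 arrays per group throughout. A gene was tested where both arrays of at least 1 of the 4 groups of the series read above log2 4. This brightness filter passed 12239 of 14884 symbols and set aside 2645 as too dim. A difference measured against a mean under log2 4 is not exact, because such a value lies near the background of the array. Genes that passed the filter through 1 line alone also tend to lean to that line by this selection. Differences are given as HepG2 minus LX2 on the log2 scale, with the SE and the Benjamini-Hochberg adjusted p of limma, and a gene was called at an adjusted p under 0.05.

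The replicate control arrays lay close together. Across genes, which are not independent replicates, they correlated at r = 0.993 in LX2 and 0.991 in HepG2, and 41 and 62 genes differed by more than log2 1 between the replicates of each line. The medians of the arrays were 4.42 and 4.43 in the LX2 controls and 4.20 and 4.19 in the HepG2 controls, so LX2 arrays read higher on the whole. The median difference over all tested genes was -0.27. It moved to -0.01 when the deposited values were quantile-normalized over the 8 arrays and to -0.04 when each array was set to a common median. Differences are best read against that shift, and it is named below wherever it turned a direction.

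In the main fit the lines differed in most of the tested genes. At the adjusted threshold 7113 of 12239 genes (58.1%) were called, with 2161 (17.7%) higher in HepG2 and 4952 (40.5%) lower. The split depended on the scaling of the arrays, since 30.4% of the called genes were higher in HepG2 as deposited, 47.3% (3206 higher and 3573 lower) after quantile normalization and 45.4% (3088 higher and 3707 lower) at a common median. Differences of at least 2-fold were called for 1004 genes higher (8.2%) and 2491 lower (20.4%). Without regard to any test, both HepG2 arrays lay above both LX2 arrays for 3383 genes (27.6%) and below them for 6826 (55.8%). The largest differences leaned the other way. At least 64-fold differences were called for 33 genes higher in HepG2 and 19 lower, and at least 256-fold differences for 13 higher and 1 lower. A mean above log2 8 in one line with a mean under 4 in the other was found for 41 genes bright in HepG2 and 46 bright in LX2. Of the 10431 protein-coding genes tested, 1868 were higher in HepG2 and 4373 lower, and of 896 long noncoding RNAs, 152 were higher and 304 lower.

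**Figure D1:**
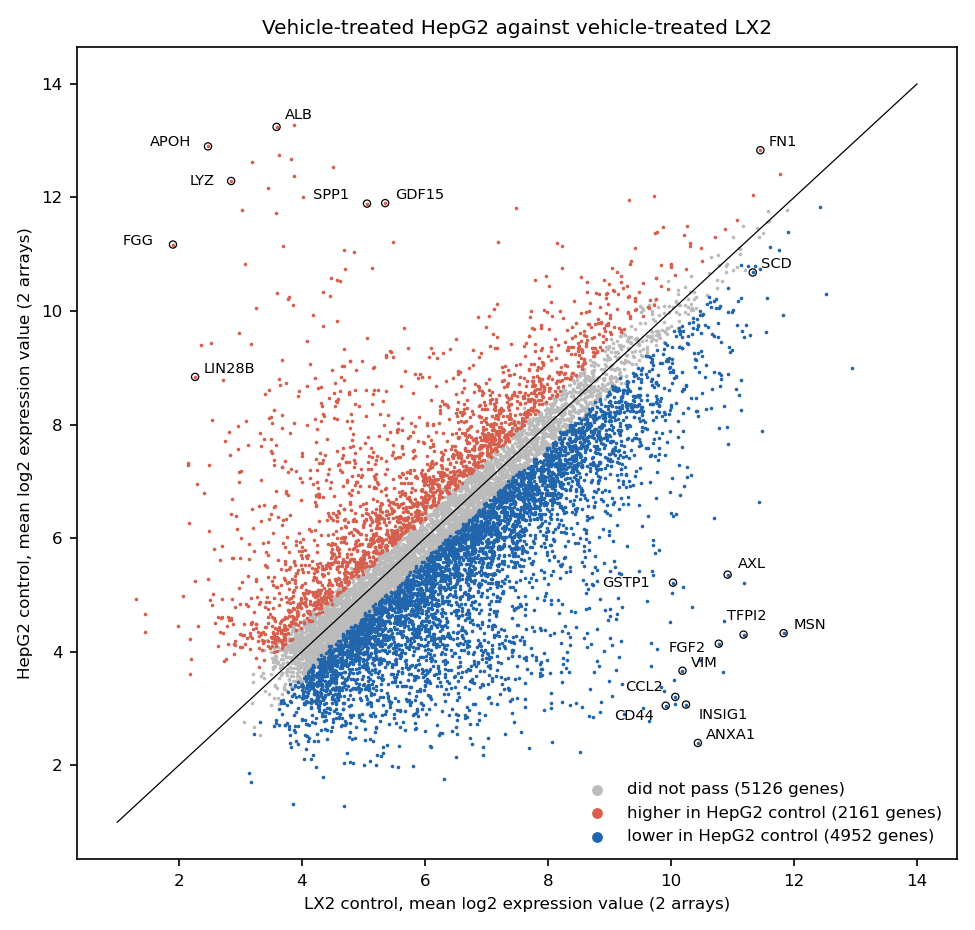
Mean log2 expression value of each of the 12239 tested genes in the LX2 control arrays (x axis) and the HepG2 control arrays (y axis), 2 arrays each, coloured by the limma call, with the line of equal values. The 2161 genes higher in HepG2 reach further from the line than the 4952 lower ones, with APOH, ALB and FGG at the upper left and ANXA1, MSN and VIM at the lower right.

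The 6 marker genes separated the lines in the direction their labels imply. Albumin (ALB, probe set 16967692), the main carrier protein of plasma, read 13.24 and 13.25 in the HepG2 arrays and 3.52 and 3.65 in the LX2 arrays. AFP (probe set 16967720), the albumin-like carrier of fetal plasma, read 12.62 and 12.64 against 3.14 and 3.25. APOH (probe set 16847979), a phospholipid-binding plasma glycoprotein, read 12.87 and 12.93 against 2.56 and 2.39. All 3 were under the brightness filter in LX2 and near the top of the scale in HepG2. APOH had the largest difference of all tested genes (10.42, SE 0.15), and ALB followed with 9.65 (SE 0.13, adjusted p = 9.93e-11 for both). In the opposite direction, ANXA1 (probe set 17085901), a phospholipid-binding annexin, read 2.51 and 2.28 in HepG2 and 10.38 and 10.49 in LX2. Moesin (MSN, probe set 17104259), which ties actin to the membrane, read 4.19 and 4.47 against 11.81 and 11.85. Vimentin (VIM, probe set 16702767), the intermediate filament of mesenchymal cells, read 3.73 and 3.60 against 10.16 and 10.22. The differences were -8.04 (SE 0.16) for ANXA1, -7.50 (SE 0.14) for MSN and -6.52 (SE 0.13) for VIM. With the mean of all its probe sets in place of the brightest, the VIM difference was -4.44. The arrays of the lines did not overlap for any of the 6 genes.

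Other genes among the 15 largest differences on the LX2 side came from adhesion, signalling and membrane traffic. Serglycin (SRGN), the core of secretory granule proteoglycans, read 3.56 and 3.72 against 10.91 and 10.77 (-7.2, SE 0.20). IL7R, a cytokine receptor chain better known from lymphocytes, read 3.20 and 2.96 against 9.92 and 10.22 (-6.99, SE 0.25). The guidance ligand SLIT2 read 2.85 and 3.78 against 9.94 and 9.84 (-6.57, SE 0.30). For each of these 3 genes the HepG2 arrays lay far below the LX2 arrays. ATL3, which shapes the endoplasmic reticulum, differed by -6.85 (SE 0.18), the lymphatic factor CCBE1 by -6.62 (SE 0.13), the glycoprotein hormone STC1 by -6.55 (SE 0.15) and the exchange factor DOCK10 by -6.52 (SE 0.14). The HepG2 side of the largest differences consisted mostly of plasma proteins, described below.

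The promoters of the 3 hepatocyte markers are shown because all 3 genes were bright in HepG2 and under the brightness filter in LX2. Each is the 250 bases before the RefSeq start of the gene in GRCh38.p14, on the strand of the gene. Capitals mark GTTAAT, the 5′ arm of the palindrome bound by the hepatocyte nuclear factor HNF1, or ATTAAC, the same letters read on the other strand.
ALB, chr4:73404037-73404286, plus strand: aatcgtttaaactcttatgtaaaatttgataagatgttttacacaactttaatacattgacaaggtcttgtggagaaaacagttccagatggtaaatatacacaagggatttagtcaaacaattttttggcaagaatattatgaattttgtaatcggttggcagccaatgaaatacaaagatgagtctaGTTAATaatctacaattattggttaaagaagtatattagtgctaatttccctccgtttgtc
AFP, chr4:73435971-73436220, plus strand: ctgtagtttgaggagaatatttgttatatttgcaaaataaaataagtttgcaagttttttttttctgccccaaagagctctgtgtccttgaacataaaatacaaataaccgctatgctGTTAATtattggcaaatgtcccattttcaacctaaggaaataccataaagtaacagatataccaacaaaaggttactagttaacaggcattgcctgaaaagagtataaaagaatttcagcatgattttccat
APOH, chr17:66229416-66229665, minus strand: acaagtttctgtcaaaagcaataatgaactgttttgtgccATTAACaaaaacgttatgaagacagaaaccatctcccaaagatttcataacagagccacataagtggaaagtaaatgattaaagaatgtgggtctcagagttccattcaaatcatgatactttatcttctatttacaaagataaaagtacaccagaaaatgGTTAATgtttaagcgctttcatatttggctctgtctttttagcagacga
The motif begins 61 bases before the start of ALB, 132 before that of AFP, and 210 and 49 before that of APOH. Searched on both strands, the motif occurs in 2188 of 35114 such windows over all genes (6.23%). For the lists, genes were counted in place of windows, each gene once if any of its windows held the motif. The list shares are thus not on the unit of the 6.23%. The motif occurs in 2 of 16 genes of the plasma carrier list described next, which are ALB and AFP shown above. It occurs in 4 of 16 genes of the coagulation list. It occurs in 2 of 14 genes of the lipoprotein list, APOH among them, and 2 of 11 of the complement list. On the LX2 side, it occurs in 1 of 22 genes of the mesenchymal list and 3 of 25 of the contractile list. The shares of the plasma carrier and contractile lists were thus similar, and differences between lists were not tested. A match describes letters, and binding was not measured here.

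Plasma proteins made by hepatocytes formed the clearest block on the HepG2 side. Of 19 tested members of a list of plasma carrier and binding proteins (30 listed), 18 were higher in HepG2 and 0 lower, with a median difference of 4.53 against -0.27 over all tested genes. The remaining member, the inter-alpha-trypsin inhibitor chain ITIH1, named after its values were seen, differed by -0.23 and did not pass. ITIH2, its sister chain that binds hyaluronan, read 12.77 and 12.58 in HepG2 and 3.71 and 3.96 in LX2 (8.84, SE 0.15). The fetuin AHSG, which keeps calcium phosphate in solution, read 12.33 and 12.42 against 4.06 and 3.67 (8.51, SE 0.16), and transferrin (TF), the iron carrier, 11.95 and 12.07 against 3.82 and 4.21 (7.99, SE 0.16). For 11 of the 19 the LX2 mean lay under the brightness filter. A2M, a broad protease inhibitor of plasma, stood beside them with 12.71 and 12.79 against 3.46 and 3.78 (9.13, SE 0.15).

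Most clotting factors were higher in HepG2 too. Of 17 tested coagulation and fibrinolysis genes (30 listed), 13 were higher in HepG2 and 3 lower, with a median of 2.26. The 3 chains of fibrinogen, the precursor of the clot polymer, were all far higher in HepG2. FGG read 11.15 and 11.20 in HepG2 and 1.80 and 2.01 in LX2 (9.27, SE 0.14), FGA differed by 8.74 (SE 0.13) and FGB by 7.74 (SE 0.13). Prothrombin (F2) read 9.66 and 9.80 against 4.27 and 4.41 (5.39, SE 0.14), and protein C (PROC), which shuts the cascade down, differed by 4.64 (SE 0.13). The 3 lower genes were TFPI2, THBD and VWF. TFPI2, an inhibitor of matrix-bound serine proteases, read 4.59 and 4.01 in HepG2 and 11.07 and 11.29 in LX2 (-6.88, SE 0.21). Thrombomodulin (THBD) differed by -1.12 (SE 0.16) and von Willebrand factor (VWF), a dim gene in HepG2, by -1.03 (SE 0.27, adjusted p = 0.0081). The VWF call was lost without LX2 control replicate 1 or HepG2 control replicate 2, where its adjusted p rose to 0.062 at most.

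Complement genes were higher in HepG2 in 11 of 14 tested members (33 listed) and lower in 0, with a median of 2.42. C3, the hub of the cascade, was bright in both lines, at 11.75 and 11.89 in HepG2 and 7.48 and 7.48 in LX2 (4.34, SE 0.18). The regulator CFI, which cleaves C3b, read 8.94 and 9.21 against 3.96 and 4.29 (4.95, SE 0.18). C2 differed by 3.83 (SE 0.17), C4B by 3.84 (SE 0.14) and C4A by 3.38 (SE 0.14), although probe sets of the near-identical pair C4A and C4B may share signal. The 3 members that did not pass ranged from -0.28 to 0.49.

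Apolipoproteins and the lipoprotein assembly machinery were higher in HepG2 in 17 of 19 tested members (31 listed), with a median of 1.64. APOB, the backbone of very low density lipoprotein, read 13.30 and 13.26 in HepG2 and 3.92 and 3.81 in LX2 (9.41, SE 0.14). APOA2 of high density lipoprotein read 12.46 and 12.63 against 4.45 and 4.57 (8.04, SE 0.13). MTTP, which loads lipid onto APOB, differed by 3.82 (SE 0.16) and APOC1 by 4.64 (SE 0.23). ANGPTL4, an inhibitor of lipoprotein lipase, was the 1 lower member (-0.56, SE 0.14, adjusted p = 0.0062), and its call was lost under both rescalings of the arrays and without replicate 1 of either line. The acute phase and iron list was split, with 7 of 11 tested members (24 listed) higher and 1 lower (median 1.13). Hepcidin (HAMP), the hormone that blocks iron export, read 8.97 and 9.72 against 5.70 and 5.76 (3.62, SE 0.22). FGL1 differed by 4.96 (SE 0.14), and the interleukin 1 receptor antagonist IL1RN by 3.69 (SE 0.16). The lower member was CD14, a co-receptor for endotoxin (-1.35, SE 0.18).

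**Figure D2:**
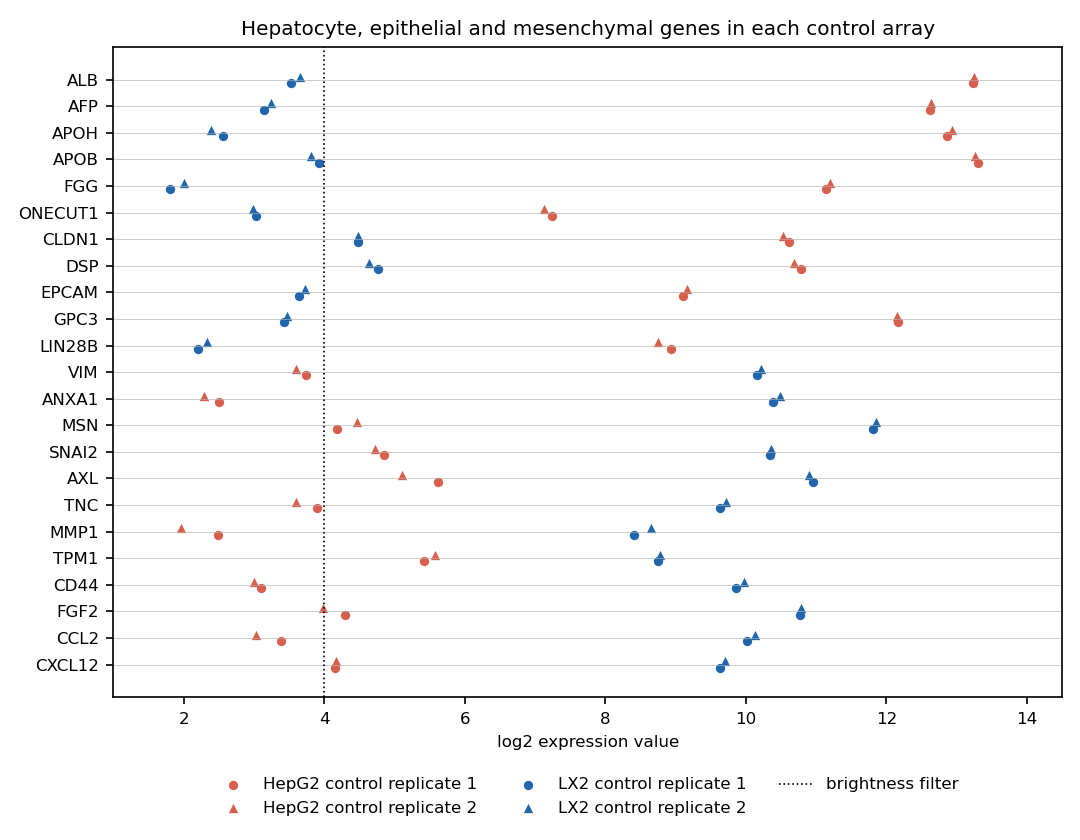
Log2 expression value (x axis) of genes of hepatocytes, epithelia, the fetal liver and mesenchyme in each of the 4 control arrays, with the brightness filter of log2 4 as a dotted line. For every gene drawn the 2 HepG2 points and the 2 LX2 points lie apart, as they do for most tested genes, and the replicates of a line nearly coincide.

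Transcription factors of hepatocytes were also mostly higher in HepG2. Of 17 tested hepatocyte transcription factors (30 listed), 13 were higher in HepG2 and 2 lower, with a median of 1.72. ONECUT1, a factor of liver and bile duct development, read 7.24 and 7.13 in HepG2 and 3.03 and 2.98 in LX2 (4.18, SE 0.15). PROX1, an early marker of hepatoblasts, differed by 4.14 (SE 0.16), and FOXA1, which opens chromatin at liver enhancers, by 3.05 (SE 0.15). XBP1, the factor of the secretory pathway, was well measured in both lines, at 9.84 and 10.00 against 7.07 and 7.0 (2.88, SE 0.15). GATA4 was lower (-0.83, SE 0.15), as was TBX3 (-0.61, SE 0.15, adjusted p = 0.0066), whose call was lost after quantile normalization and without LX2 control replicate 1. HNF4A and the HNF1 genes had no probe set with a symbol in the annotation used and were not analysed here.

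Enzymes of nitrogen and amino acid metabolism were mostly higher in HepG2. Of 24 tested genes of the urea cycle and amino acid catabolism (41 listed), 19 were higher in HepG2 and 1 lower, with a median of 1.49. HPD, which degrades tyrosine, read 10.33 and 10.33 in HepG2 and 4.22 and 4.47 in LX2 (5.99, SE 0.17), and TAT, the first enzyme of that route, differed by 4.52 (SE 0.16). The cystathionine cleaving enzyme CTH differed by 4.33 (SE 0.28), ASS1 of the urea cycle by 2.98 (SE 0.15), and the glycine cleaving enzyme GLDC by 2.94 (SE 0.19). AASS, which degrades lysine, was lower (-0.50, SE 0.16, adjusted p = 0.0226), and that call was lost under both rescalings and without any one of the 4 control arrays. Drug and bile acid metabolism was measured by only 8 genes of 59 listed, of which 6 were higher and 2 lower. The alcohol dehydrogenase ADH6 differed by 6.08 (SE 0.21), and the glutathione transferases GSTA2 and GSTA1, near-identical copies whose probe sets may share signal, by 4.19 (SE 0.35) and 3.41 (SE 0.23). Their relative GSTP1, the form of tissues other than hepatocytes, went the other way, at 5.25 and 5.19 in HepG2 and 10.13 and 9.93 in LX2 (-4.82, SE 0.14). NNMT, which methylates nicotinamide, was also lower (-3.85, SE 0.20), by -2.55 with the mean of its probe sets. The GSTA2 difference was 3.53 without LX2 control replicate 2 and 4.84 without LX2 control replicate 1. Of 33 listed hepatic transporters only 2 were tested. SLC51B, a subunit of the bile acid exporter, was higher (3.76, SE 0.16). Its partner SLC51A, named after its values were seen, read 4.22 and 4.20 against 4.37 and 4.05 and did not pass.

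Fuel metabolism genes differed in both directions. Of 15 tested genes of gluconeogenesis, ketogenesis and fuel handling (32 listed), 8 were higher in HepG2 and 2 lower, with a median of 0.57. Under both rescalings 12 were higher and 1 lower. The mitochondrial enzyme PCK2 differed by 3.26 (SE 0.14), ACSL1, which activates fatty acids, by 3.22 (SE 0.15) and GCKR, the regulator of glucokinase, by 2.60 (SE 0.17). The lipid droplet coat PLIN2 differed by 2.47 (SE 0.16). CPT1A, the gate of mitochondrial fatty acid oxidation, was lower (-0.96, SE 0.17), as was HADH (-0.60, SE 0.16), whose call was lost under both rescalings and without replicate 1 of either line. Glycolysis and hypoxia genes were mostly lower in HepG2, with 14 of 18 tested members (33 listed) lower, 3 higher and a median of -0.74. After quantile normalization 10 were lower and 3 higher. Isoforms differed in opposite directions. Hexokinase 2 (HK2) read 9.41 and 9.28 in HepG2 and 7.16 and 7.2 in LX2 (2.16, SE 0.17), whereas hexokinase 1 (HK1) read 4.0 and 3.66 against 7.89 and 7.90 (-4.07, SE 0.16). The lactate dehydrogenase subunit LDHB read 3.27 and 3.86 against 7.96 and 7.78 (-4.30, SE 0.23). EPAS1, the oxygen-regulated factor HIF2A, was higher (1.31, SE 0.17), as was VEGFA (0.68, SE 0.20, adjusted p = 0.0143), whose call was lost without LX2 control replicate 1 or either HepG2 replicate. BNIP3L, a mitophagy receptor, was lower (-3.60, SE 0.14).

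Genes of cholesterol and fatty acid synthesis were lower in HepG2 than in LX2. Of 35 tested members (45 listed), 26 were lower, 3 higher and 6 did not pass, with a median of -0.94 against -0.27 over all genes. After quantile normalization 22 were lower and 6 higher (median -0.67), and in the CM272 arrays 17 were lower and 8 higher (median -0.38). INSIG1, the sterol-sensing protein that holds back the SREBP factors and is itself their target, had the largest difference of the list. It read 3.12 and 3.02 in HepG2 and 10.28 and 10.21 in LX2 (-7.17, SE 0.13, adjusted p = 3.78e-10), and the difference in the CM272 arrays was -6.21. HMGCS1, the first committed enzyme of the mevalonate route, read 7.13 and 7.08 against 10.34 and 10.33 (-3.23, SE 0.16). MSMO1, a sterol demethylase, read 8.26 and 8.24 against 11.12 and 11.16 (-2.89, SE 0.14). The desaturases SCD5 and FADS2 differed by -3.74 (SE 0.16) and -2.69 (SE 0.21). The 3 higher members were DGAT1 (1.45, SE 0.18), which completes triglycerides, the elongase ELOVL2 (1.13, SE 0.14) and ACSL4 (0.82, SE 0.19), which prefers arachidonic acid. Serum, which supplies cholesterol in lipoproteins, differed between the lines as stated, and its part in these values cannot be told apart from that of the line.

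**Figure D3:**
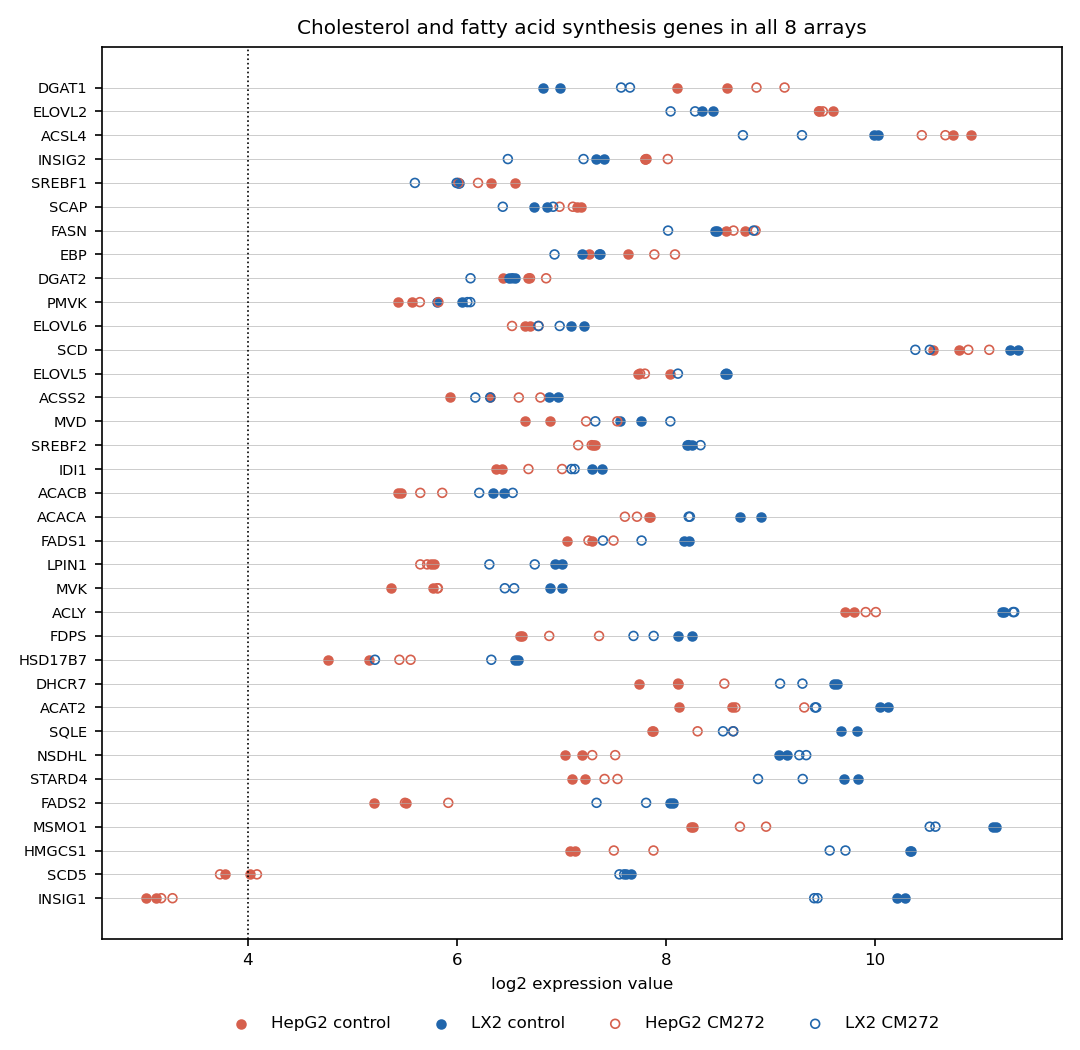
Log2 expression value (x axis) of the 35 tested cholesterol and fatty acid synthesis genes in all 8 arrays, with control arrays filled and CM272 arrays open, sorted by the control difference, and with the brightness filter as a dotted line. Filled HepG2 points lie left of filled LX2 points for most genes, furthest for INSIG1, and right of them for DGAT1, ELOVL2 and ACSL4.

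Genes of the fetal liver and of liver cancer were found on both sides. Of 27 tested members (36 listed), 14 were higher in HepG2 and 10 lower, with a median of 0.70. Glypican 3 (GPC3, probe set 17114288), a surface proteoglycan used as a tumour marker, read 12.17 and 12.15 in HepG2 and 3.43 and 3.47 in LX2 (8.71, SE 0.15). Osteopontin (SPP1), a secreted adhesion protein, read 11.86 and 11.92 against 4.88 and 5.24 (6.83, SE 0.17). The keratin KRT23 differed by 6.72 (SE 0.25), LIN28B, an RNA-binding protein that blocks let-7 maturation, by 6.58 (SE 0.21), and LGR5, a receptor that marks stem cells, by 6.45 (SE 0.19). Besides CD44, described below, the lower members included the imprinted genes PLAGL1 (-3.24, SE 0.16), MEG3 (-2.90, SE 0.13) and MEST (-1.51, SE 0.13), and the adhesion molecule NCAM1 (-1.99, SE 0.19).

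Epithelial junction and keratin genes were higher in HepG2 in 24 of 37 tested members (50 listed) and lower in 4, with a median of 1.05. Claudin 1 (CLDN1), a tight junction strand protein, read 10.61 and 10.53 in HepG2 and 4.48 and 4.48 in LX2 (6.09, SE 0.24). Desmoplakin (DSP), which anchors keratins to desmosomes, read 10.78 and 10.69 against 4.77 and 4.64 (6.03, SE 0.16). The desmosomal cadherin DSC2 differed by 5.15 (SE 0.15), villin (VIL1), the bundler of microvilli, by 4.20 (SE 0.15), and the epithelial splicing regulator ESRP2 by 3.82 (SE 0.15). KRT80 (-2.60, SE 0.17), TJP1 (-1.08, SE 0.15) and CLDN14 (-0.87, SE 0.15) were lower. CLDN3 was lower as well (-0.53, SE 0.16, adjusted p = 0.0154), a call lost under both rescalings and without any control array but HepG2 replicate 2. Keratin 8 (KRT8), named after its values were seen, differed by -0.11 and did not pass.

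Mesenchymal genes lay mostly on the LX2 side. Of 30 tested genes of mesenchymal identity (41 listed), 23 were lower in HepG2 and 1 higher, with a median of -2.67, the lowest of the 35 lists. For 7 of the 30 the HepG2 mean lay under the brightness filter. At a filter of log2 6, 18 of 21 tested were lower and 2 higher. The membrane protease MME read 3.01 and 2.80 in HepG2 and 9.24 and 9.23 in LX2 (-6.33, SE 0.14). The BMP antagonist gremlin (GREM1) read 5.35 and 5.08 against 11.12 and 11.26 (-5.98, SE 0.15). SNAI2, which represses epithelial genes, and ZEB2, TWIST1 and SNAI1 were named after their values were seen. They differed by -5.56, -3.46, -1.54 and -0.96, and all were called lower. ZEB1, also named afterwards, differed by 0.03 and did not pass. MSX1 was the 1 higher member (0.52, SE 0.15, adjusted p = 0.0164), and its call was lost without LX2 control replicate 1 and without either HepG2 replicate. CD44, the hyaluronan receptor, read 3.10 and 3.01 in HepG2 and 9.86 and 9.97 in LX2 (-6.86, SE 0.15).

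Stellate cell and pericyte markers were called about as often as all genes. Of 25 tested stellate cell and pericyte markers (35 listed), 11 were lower in HepG2, 4 higher and 10 did not pass, and the median (-0.29) lay near that of all genes. The growth factor BDNF (-2.94, SE 0.17), WT1 of the mesothelial lineage (-2.82, SE 0.15), the signalling regulator RGS4 (-2.50, SE 0.15) and the pericyte proteoglycan CSPG4 (-2.24, SE 0.18) were lower in HepG2, as was the matrix protein ECM1 (-3.22, SE 0.18). The vitamin A esterifying enzyme LRAT was too dim to be tested, at 3.85 and 4.27 in the LX2 arrays. So were the matrix proteins DCN, at 2.28 and 1.83, and LUM, at 2.74 and 3.02. The filament proteins GFAP and DES did not pass (-0.24 and 0.34). These 5 were named after their values were seen. DCN and LUM were thus under the brightness filter in the LX2 control arrays and LRAT close to it. Of the 29 markers with a probe set, 24 and 25 lay over the filter in the LX2 arrays and 22 and 20 in the HepG2 arrays. Reelin (RELN, probe set 17061298), a secreted glycoprotein listed as a stellate marker, ran opposite to its list, at 11.03 and 11.12 in HepG2 and 4.59 and 4.77 in LX2 (6.39, SE 0.14). Cytoglobin (CYGB) and nestin (NES) were likewise higher in HepG2, by 2.17 (SE 0.17) and 1.5 (SE 0.15), and so was COLEC11 (0.57, SE 0.17, adjusted p = 0.0159), whose call was lost without LX2 control replicate 1 or HepG2 control replicate 2.

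Contractile genes of myofibroblasts lay on the LX2 side. Of 27 tested contractile cytoskeleton genes (47 listed), 22 were lower in HepG2 and 0 higher, with a median of -1.51, and after quantile normalization 21 were lower and 1 higher. The focal adhesion partner TGFB1I1 read 5.06 and 4.99 in HepG2 and 9.97 and 10.07 in LX2 (-5.00, SE 0.16). The tropomyosin TPM1, which stabilises actin filaments, read 5.41 and 5.58 against 8.75 and 8.77 (-3.27, SE 0.15), and TPM2 differed by -2.92 (SE 0.22). Myocardin (MYOCD), the smooth muscle coactivator, differed by -3.45 (SE 0.16) and FHL2 by -3.87 (SE 0.21). Genes of caveolae, annexins and membrane trafficking were lower in 20 of 26 tested members (31 listed) and higher in 3, with a median of -1.44. EHD2, which caps the caveolar neck, read 4.43 and 4.61 against 9.99 and 9.98 (-5.46, SE 0.24), and the coat protein CAVIN1 differed by -3.43 (SE 0.13). The tetraspan proteins EMP3 (-4.80, SE 0.14) and EMP1 (-4.36, SE 0.16) and the annexin ANXA2 (-3.55, SE 0.19) were lower too. Their relatives ANXA9 (3.51, SE 0.27) and ANXA4 (1.97, SE 0.15) were higher in HepG2, as was S100P (1.96, SE 0.16).

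Matrix genes were split, and no fibrillar collagen gene was among those with a symbol. Of 25 tested matrix proteins (65 listed), 10 were lower in HepG2, 8 higher and 7 did not pass, with a median of -0.32 that lay near the median of all genes. Tenascin C (TNC), a matrix protein of wounds, read 3.90 and 3.60 in HepG2 and 9.63 and 9.72 in LX2 (-5.93, SE 0.17). The microfibril protein FBN1 (-4.34, SE 0.14), the basement membrane linker NID2 (-4.32, SE 0.15), THBS2 (-4.26, SE 0.18) and EFEMP1 (-3.80, SE 0.17) were lower as well. Matrilin 3 (MATN3) read 9.07 and 9.01 in HepG2 and 4.60 and 4.77 in LX2 (4.35, SE 0.22), and NID1, the relative of NID2, was higher by 1.46 (SE 0.15). Fibronectin (FN1), also a plasma protein of hepatocytes, was bright in both lines at 12.84 and 12.83 against 11.47 and 11.43 (1.38, SE 0.13). FBLN1 differed by 2.50 (SE 0.15) and CTHRC1 by 2.23 (SE 0.14).

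Enzymes that cut, protect or cross-link the matrix were lower in HepG2 in 17 of 22 tested members (46 listed) and higher in 3, with a median of -1.67. The interstitial collagenase MMP1 read 2.49 and 1.97 in HepG2 and 8.41 and 8.65 in LX2 (-6.30, SE 0.23). The collagen cross-linker LOXL2 read 5.14 and 5.15 against 10.28 and 10.11 (-5.05, SE 0.21). The metalloproteinase inhibitors TIMP1 and TIMP2 differed by -3.30 (SE 0.15) and -3.82 (SE 0.13), and the surface protease ADAM12 by -3.49 (SE 0.22). MMP15 (2.36, SE 0.19), LOXL4 (1.83, SE 0.14) and the proprotein convertase FURIN (1.35, SE 0.15) were higher in HepG2. Of 16 tested integrins and adhesion receptors (36 listed), 8 were lower and 4 higher (median -0.54). These counts lay near the shares over all genes, 40.5% lower and 17.7% higher. After quantile normalization 8 were lower and 5 higher (median -0.26). The collagen receptor DDR2 read 4.0 and 4.0 against 8.39 and 8.24 (-4.32, SE 0.16), while the proteoglycan SDC2 read 9.20 and 9.25 against 5.31 and 5.42 (3.86, SE 0.18). The adhesion molecule ICAM1 (1.46, SE 0.16) was higher too, and SDC4 by 0.60 (SE 0.17, adjusted p = 0.0147), a call lost without either LX2 replicate and without HepG2 control replicate 1. At a brightness filter of log2 6 the list stood at 4 higher and 4 lower.

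**Figure D4:**
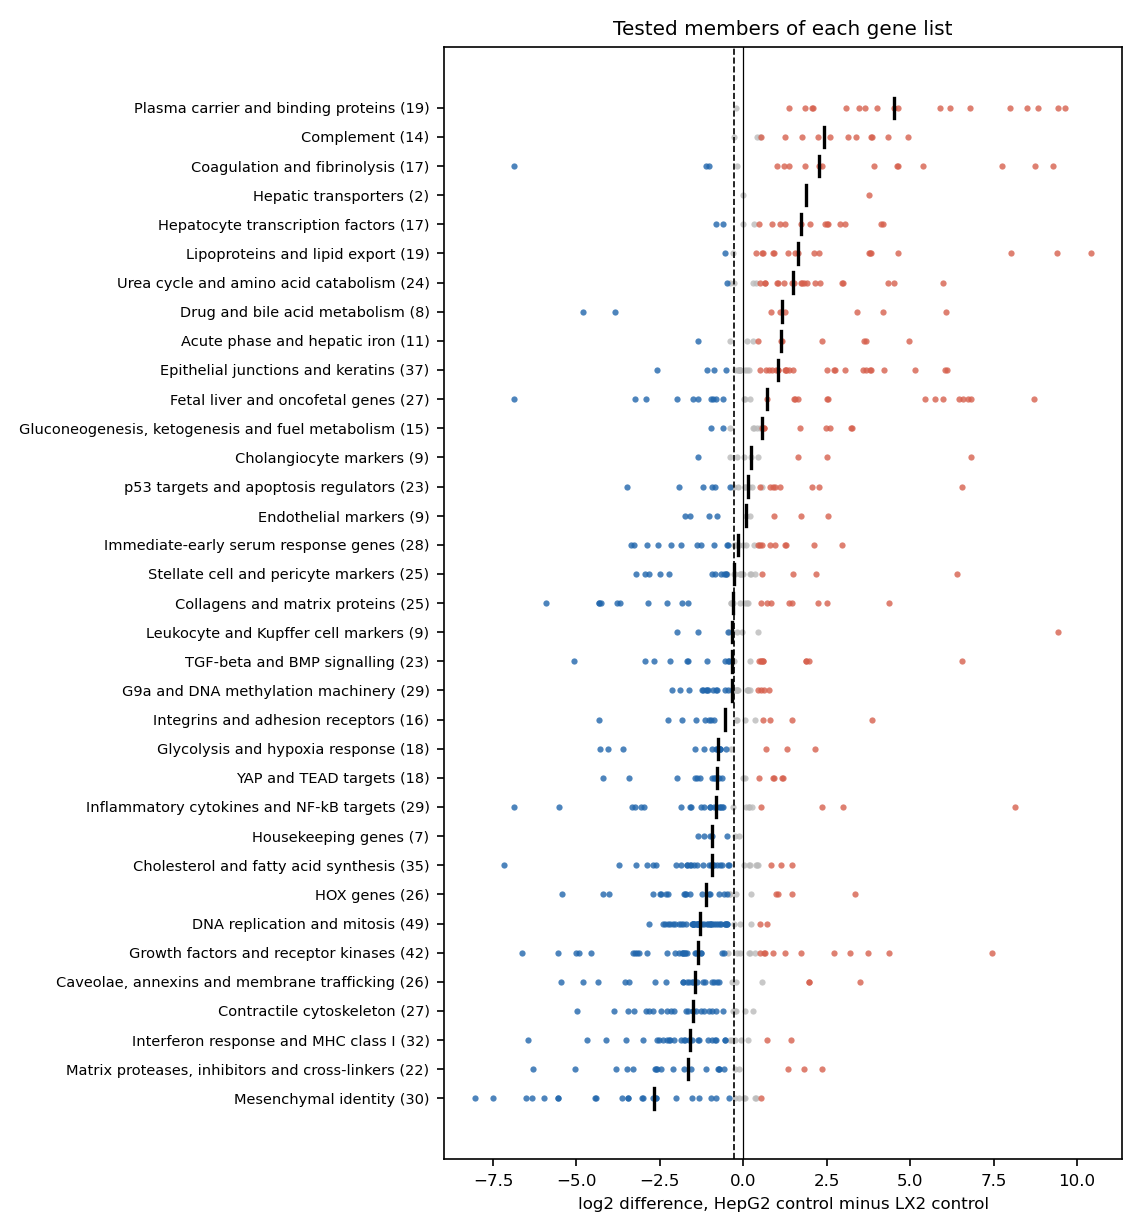
Log2 difference, HepG2 control minus LX2 control (x axis), of each tested member of the 35 gene lists (number tested in brackets), red where called higher in HepG2, blue where called lower and grey where not passed. Heavy ticks mark the list medians and the dashed line the median of all tested genes, -0.27. Plasma carriers lie furthest right with a median of 4.53 and mesenchymal genes furthest left with -2.67.

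Growth factors and receptor kinases formed different sets in each line. Of 42 tested members (54 listed), 25 were lower in HepG2 and 11 higher, with a median of -1.35. FGF2, a mitogen of mesenchymal cells, read 4.30 and 3.98 in HepG2 and 10.77 and 10.79 in LX2 (-6.63, SE 0.15). The receptor AXL read 5.62 and 5.10 against 10.95 and 10.89 (-5.56, SE 0.22). IGFBP7 (-5.01, SE 0.16), the lymphatic growth factor VEGFC (-4.92, SE 0.25) and FGF5 (-4.57, SE 0.18) were also lower. On the HepG2 side stood IGFBP1, the insulin-regulated binding protein of hepatocytes, at 11.50 and 10.80 against 3.72 and 3.67 (7.46, SE 0.33). FGFR4 and its co-receptor KLB, which sense the ileal hormone FGF19, differed by 3.74 (SE 0.21) and 4.37 (SE 0.21). FGFR3 differed by 2.71 (SE 0.13) and the EGFR ligand EREG by 3.20 (SE 0.28).

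The TGF-beta and BMP pathway showed no common direction. Of 23 tested members (45 listed), 9 were higher in HepG2 and 10 lower (median -0.35), and under both rescalings the order turned, to 11 higher and 8 lower after quantile normalization and 10 and 7 at a common median. Without LX2 control replicate 2 the counts were 4 higher and 8 lower, and without HepG2 control replicate 2 they were 4 and 9. The secreted ligand GDF15 read 11.94 and 11.86 in HepG2 and 5.16 and 5.55 in LX2 (6.55, SE 0.25), and BMP4 was higher by 1.87 (SE 0.17). The antagonists BAMBI and FST were higher by 1.96 (SE 0.14) and 1.87 (SE 0.16), and CHRD by 0.60 (SE 0.18, adjusted p = 0.0165), a call lost without replicate 2 of either line. The latent TGF-beta binding proteins LTBP4 and LTBP1 were lower by -2.69 (SE 0.25) and -2.20 (SE 0.16). FSTL1 (-5.09, SE 0.13), the ubiquitin ligase SMURF2 (-2.95, SE 0.17) and the receptor-activated SMAD3 (-1.69, SE 0.16) were lower as well. Among 18 tested YAP and TEAD genes (28 listed), 11 were lower and 5 higher (median -0.80). MYOF (-4.20, SE 0.14), the cofactor VGLL3 (-3.43, SE 0.16), AMOTL1 (-2.0, SE 0.17), AMOTL2 (-1.38, SE 0.18) and TEAD1 (-1.45, SE 0.13) were lower. The matrix-associated target CCN2 (1.15, SE 0.15), ANKRD1 (1.19, SE 0.27), AJUBA (0.92, SE 0.18) and TEAD4 (0.90, SE 0.16) were higher. YAP1 was higher by 0.48 (SE 0.15, adjusted p = 0.0177), a call lost with the mean of its probe sets, without either LX2 replicate and without HepG2 control replicate 1.

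Cytokine and interferon genes lay mainly on the LX2 side. Of 29 tested inflammatory genes (48 listed), 20 were lower in HepG2 and 4 higher, with a median of -0.82. The chemokine CCL2, which draws monocytes, read 3.38 and 3.03 in HepG2 and 10.02 and 10.13 in LX2 (-6.87, SE 0.38). CXCL12, which holds CXCR4-bearing cells, read 4.16 and 4.16 against 9.64 and 9.70 (-5.51, SE 0.20). The neutrophil chemokines CXCL8 (-3.34, SE 0.19) and CXCL6 (-3.06, SE 0.14) and the cytokine IL15 (-3.24, SE 0.34) were lower. CCL20, the ligand of CCR6, ran the other way, at 11.70 and 11.76 in HepG2 and 3.36 and 3.79 in LX2 (8.15, SE 0.26). IL18 (3.0, SE 0.19) and CXCL16 (2.36, SE 0.15) were higher too, and IL32 by 0.53 (SE 0.18, adjusted p = 0.0325), a call lost without any one of the 4 control arrays. Of 32 tested interferon response and MHC class I genes (53 listed), 25 were lower in HepG2 and 2 higher (median -1.59). For 9 of the 32 the HepG2 mean lay under the brightness filter. At a filter of log2 6, 19 of 23 tested were lower and 2 higher. SAMD9, an antiviral factor, read 3.19 and 3.58 in HepG2 and 9.77 and 9.91 in LX2 (-6.46, SE 0.18), and its relative SAMD9L differed by -4.13 (SE 0.17). CGAS, the sensor of cytosolic DNA, read 2.72 and 2.82 against 7.37 and 7.53 (-4.68, SE 0.14). GBP3 (-3.51, SE 0.20) and IFIT3 (-3.01, SE 0.21) were lower, and MX2 (1.43, SE 0.17) and USP18 (0.71, SE 0.20, adjusted p = 0.0114) were higher. The USP18 call was lost without either LX2 replicate and without HepG2 control replicate 2.

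The immediate-early genes, which respond to serum, differed between the lines in both directions. Of 28 tested members (36 listed), 9 were higher in HepG2 and 11 lower (median -0.16). After quantile normalization 11 were higher and 8 lower with a median of 0.09, and at a common median 11 were higher and 9 lower with a median of 0.07. The higher count fell to 5 without HepG2 control replicate 1 and to 6 without any other control array. In the CM272 arrays 4 members were higher and 19 lower, with a median of -1.12. MYC was higher (2.12, SE 0.14), as were ETV4 (2.97, SE 0.14), ATF3 (1.28, SE 0.21), SPRY4 (1.24, SE 0.15) and KLF10 (0.94, SE 0.23, adjusted p = 0.0064), whose call was lost without HepG2 control replicate 1. The AP-1 subunit FOSL1 read 7.70 and 7.61 in HepG2 and 10.93 and 10.94 in LX2 (-3.28, SE 0.21). KLF2 (-3.35, SE 0.21), IER5 (-2.89, SE 0.22), DUSP4 (-2.55, SE 0.23) and SGK1 (-2.18, SE 0.21) were lower.

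Proliferation genes were lower in HepG2. Of 49 tested genes of DNA replication and mitosis (60 listed), 43 were lower and 2 higher, with a median of -1.30, and after quantile normalization 38 were lower and 2 higher (median -1.03). The mitotic motors KIF20A, KIF23 and KIF11 differed by -2.40 (SE 0.17), -2.36 (SE 0.16) and -2.19 (SE 0.15). Cyclin B1 (CCNB1), the mitotic cyclin, read 7.06 and 7.29 in HepG2 and 9.46 and 9.40 in LX2 (-2.25, SE 0.18). The paired G1 cyclins differed in opposite directions. CCNE2 read 4.82 and 4.38 against 7.35 and 7.47 (-2.81, SE 0.20), whereas CCNE1 was higher in HepG2 (0.71, SE 0.19, adjusted p = 0.0106), as was CDK6 (0.51, SE 0.14, adjusted p = 0.0099). The CCNE1 call was lost without LX2 control replicate 1 or HepG2 control replicate 2, and that of CDK6 without replicate 1 of either line. Growth rate was not measured. Among 23 tested p53 targets and apoptosis regulators (39 listed), 8 were higher and 6 lower (median 0.13). The survival gene BCL2L1 was higher (2.26, SE 0.14) and its relative BCL2 lower (-1.91, SE 0.14). SESN2 (2.05, SE 0.17), BIK (1.10, SE 0.16) and BAX (0.95, SE 0.14) were higher, and PLK2 (-3.48, SE 0.17), POLK (-1.22, SE 0.17), PMAIP1 (-0.94, SE 0.20) and BIRC2 (-0.84, SE 0.16) lower.

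HOX genes, which record position along the body axis, were mostly lower in HepG2. Of 26 tested HOX genes (39 listed), 18 were lower in HepG2 and 4 higher, with a median of -1.12. For 11 of the 26 the HepG2 mean lay under the brightness filter, and for 1 the LX2 mean. At a filter of log2 6 only 10 HOX genes were tested, of which 8 were lower and 2 higher. HOXB2 read 3.53 and 3.81 in HepG2 and 9.06 and 9.14 in LX2 (-5.43, SE 0.18). Its neighbours HOXB3 (-4.20, SE 0.15), HOXB4 (-4.03, SE 0.18), HOXB5 (-2.70, SE 0.16) and HOXB7 (-2.49, SE 0.17) followed. The 4 higher genes were HOXD1, at 8.05 and 8.09 against 4.79 and 4.68 (3.34, SE 0.13), HOXD3 (1.45, SE 0.17), HOXD4 (0.98, SE 0.14) and HOXB1 (1.03, SE 0.18). By cluster, 9 of 10 tested HOXB genes were lower and 1 higher, 6 of 7 HOXC genes were lower and 0 higher, and of 8 HOXD genes 3 were higher and 2 lower. The 1 tested HOXA gene was lower. Differences between clusters were not tested.

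The targets of CM272 were measured in the untreated state of both lines. The list for DNA methylation and the G9a complex was called about as often as all genes, of which 40.5% were lower and 17.7% higher. Of its 29 tested members (36 listed), 13 were lower in HepG2, 4 higher and 12 did not pass (median -0.35). Without replicate 2 of either line 2 were higher and 12 lower. DNMT1, the maintenance DNA methyltransferase, read 8.26 and 8.41 in HepG2 and 9.46 and 9.44 in LX2 (-1.11, SE 0.14, adjusted p = 8.73e-05). UHRF1, which brings DNMT1 to replicated DNA, differed by -0.92 (SE 0.15, adjusted p = 0.000443). G9a (EHMT2) read 7.07 and 7.12 against 7.51 and 7.62 (-0.47, SE 0.16, adjusted p = 0.0277). That call was lost under both rescalings and without any one of the 4 control arrays, with adjusted p-values from 0.00545 to 0.347 over all settings tried. Its partner EHMT1 differed by -0.35 (SE 0.15, adjusted p = 0.0653), and passed in 4 of the settings. The de novo methyltransferases DNMT3B (0.61, SE 0.14) and DNMT3A (0.53, SE 0.14, adjusted p = 0.0095) were higher, as were KDM4C (0.77, SE 0.14) and ZBTB33 (0.44, SE 0.13, adjusted p = 0.0169). The DNMT3A call was lost without replicate 2 of either line, and the ZBTB33 call without any one of the 4 control arrays. The heterochromatin proteins CBX5 (-2.15, SE 0.14) and CBX1 (-1.91, SE 0.15) and the methyl-DNA binding protein MBD2 (-1.63, SE 0.15) were lower, as were MBD1 (-1.20, SE 0.14) and SUZ12 (-1.25, SE 0.18).

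MicroRNA hairpins were measured as precursor transcripts, since the arrays do not read the mature form. Of 1072 hairpins with a probe set, 561 were tested, of which 75 were higher in HepG2 (13.4%) and 154 lower (27.5%). The hairpins named here, chosen after their values were seen, are those above log2 6 in at least 1 line that differed by at least log2 2. There were 9 lower and 3 higher in HepG2. The mature sequences below, from RefSeq (GRCh38.p14), are shown for 7 of the lower ones and for let-7i, described next, so that shared seeds can be seen, with the seed (bases 2 to 8) in capitals.
miR-221-3p: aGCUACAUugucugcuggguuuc
miR-222-3p: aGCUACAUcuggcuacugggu
miR-29a-3p: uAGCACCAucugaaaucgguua
miR-181b-5p: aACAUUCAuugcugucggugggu
miR-424-5p: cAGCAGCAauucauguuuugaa
miR-155-5p: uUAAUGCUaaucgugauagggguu
let-7a-5p: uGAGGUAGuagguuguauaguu
let-7i-5p: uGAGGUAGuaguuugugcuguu
The neighbours MIR221 and MIR222, encoded together on chromosome X with the shared seed GCUACAU, were both lower in HepG2. MIR221 read 5.01 and 4.84 in HepG2 and 8.83 and 8.86 in LX2 (-3.92, SE 0.24), and MIR222 read 3.60 and 3.57 against 7.95 and 7.87 (-4.32, SE 0.18). MIR29A, of a family that targets collagen transcripts, read 3.42 and 2.42 against 7.25 and 7.57 (-4.49, SE 0.29). MIR181B1 differed by -3.0 (SE 0.16) together with its host transcript MIR181A1HG (-3.60, SE 0.15). MIR424 (-2.70, SE 0.15), MIR329-1 (-2.51, SE 0.40) and MIR155 (-2.45, SE 0.19) were lower too. MIR4668 differed by -4.40 (SE 0.32), and it lies within UGCG, which read 6.51 and 6.21 in HepG2 and 10.73 and 10.68 in LX2 (-4.35, SE 0.23). A probe set of an intragenic hairpin can read the host transcript, and the part of the host in these values was not tested.

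The let-7 family, which shares the seed GAGGUAG, was chosen after its values were seen. It had 8 tested hairpins, of which 5 were lower in HepG2 and 0 higher, beside 27.5% lower and 13.4% higher among all tested hairpins. MIRLET7A3 read 4.81 and 4.38 in HepG2 and 6.67 and 6.77 in LX2 (-2.12, SE 0.19), MIRLET7A2 differed by -3.11 (SE 0.53) and MIRLET7I by -1.52 (SE 0.15). MIRLET7D (-1.32, SE 0.40, adjusted p = 0.0181) and MIRLET7A1 (-0.64, SE 0.19, adjusted p = 0.0159) were lower as well, but neither call was stable. That of MIRLET7D was lost after quantile normalization, without either LX2 replicate and without HepG2 control replicate 2, and that of MIRLET7A1 under both rescalings and without replicate 1 of either line. MIRLET7E, MIRLET7F1 and MIRLET7G differed by -0.31, -0.55 and 0.07 and did not pass, although the first 2 passed when the CM272 arrays were left out of the fit or arrays were weighted. LIN28B, given above, read 8.94 and 8.74 in HepG2 and 2.20 and 2.33 in LX2. Mature let-7 was not measured, and a link between LIN28B and these hairpin values was not tested. On the HepG2 side, MIR3189 read 8.32 and 8.02 against 3.80 and 3.54 (4.50, SE 0.32) and lies within GDF15, which differed by 6.55. MIR551A differed by 3.0 (SE 0.20), while MEGF6, in which it lies, differed by 0.60. MIR548V differed by 3.21 (SE 0.31), and by 2.62 without LX2 control replicate 2 and 3.80 without LX2 control replicate 1, and its host MTUS1 by 2.92.

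Markers of other liver cells were also examined in these pure lines. Of 9 tested leukocyte and Kupffer cell markers (22 listed), 1 was higher in HepG2 and 3 lower, and 5 did not pass, with 2 higher and 2 lower under both rescalings. The higher one was lysozyme (LYZ), at 12.37 and 12.22 in HepG2 and 2.87 and 2.83 in LX2 (9.44, SE 0.13), and its difference was 8.34 with the mean of its probe sets. The lysosomal protein CD68 was lower (-1.99, SE 0.17), as were CD14, given above, and MARCO (-0.46, SE 0.14, adjusted p = 0.0178), a call lost under both rescalings and without replicate 2 of either line. The summed linear level of the 10 markers with a probe set was 5749 and 5233 in HepG2 and 1377 and 1409 in LX2. LYZ made up 91.8% and 90.9% of the HepG2 sums, and without it the order turned, with 473 and 475 in HepG2 against 1370 and 1402 in LX2. Of 9 tested cholangiocyte markers (14 listed), 3 were higher and 1 lower. Besides SPP1, given above, KRT19 (2.52, SE 0.15) and SOX9 (1.64, SE 0.16) were higher, and KRT7 was lower (-1.37, SE 0.29). Without LX2 control replicate 2, 4 cholangiocyte markers were higher and 2 lower, and 2 leukocyte markers were higher and 2 lower. Of 9 tested endothelial markers (17 listed), 3 were higher and 4 lower, a balance that turned to 4 higher and 3 lower at a common median. LYVE1 (2.55, SE 0.19), ESAM (1.72, SE 0.17) and ERG (0.91, SE 0.22) were higher, and KDR (-1.76, SE 0.29), TIE1 (-1.61, SE 0.20), OIT3 (-0.80, SE 0.23) and VWF lower. The OIT3 call was lost under both rescalings and without replicate 2 of either line. The summed endothelial level was 408 and 385 in HepG2 and 295 and 304 in LX2. Without ESAM the sums were 267 and 276 against 255 and 268, and 6 of the 12 markers with a probe set lay over the brightness filter in each HepG2 array against 8 in each LX2 array. Without HepG2 control replicate 2, 3 endothelial markers were called higher and 2 lower. Of 7 tested housekeeping genes (18 listed), 5 were lower in HepG2 and 0 higher, with a median of -0.93, and 4 were lower after quantile normalization (median -0.66). They included GAPDH (-1.19, SE 0.13), B2M (-1.35, SE 0.13), HPRT1 (-1.0, SE 0.24) and PGK1 (-0.93, SE 0.15). GAPDH read only 6.45 and 6.55 in HepG2 and 7.66 and 7.72 in LX2, and TBP was the brightest of the 7 in both HepG2 arrays. TBP differed by -0.49 (SE 0.14, adjusted p = 0.013), a call lost under both rescalings and without LX2 control replicate 1 or HepG2 control replicate 2.

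The same lines were compared again in the CM272 arrays, which share no array with the control comparison. There 7326 genes (59.9%) were called, 2215 higher in HepG2 (18.1%) and 5111 lower (41.8%). Of the 2161 genes higher in HepG2 control, 1708 (79.0%) were called higher in the CM272 arrays and 19 lower. Of the 4952 lower ones, 4147 (83.7%) were called lower and 18 higher. At least 2-fold differences were called for 1028 genes higher in HepG2 (8.4%) and 2514 lower (20.5%). Among genes at least 2-fold apart in the controls the shares were 965 of 1004 (96.1%) and 2397 of 2491 (96.2%). The difference of APOH was 10.42 in the control and 10.52 in the CM272 arrays, that of AFP 9.44 in both, that of ANXA1 -8.04 and -8.17, and that of VIM -6.52 and -6.28. The spread behind both sets of calls was estimated from the same 8 arrays. Among the 17 named genes whose difference changed between the conditions by limma's interaction term, RELN changed most, from 6.39 to 2.74 (change 3.65, SE 0.20, adjusted p = 2.56e-05).

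**Figure D5:**
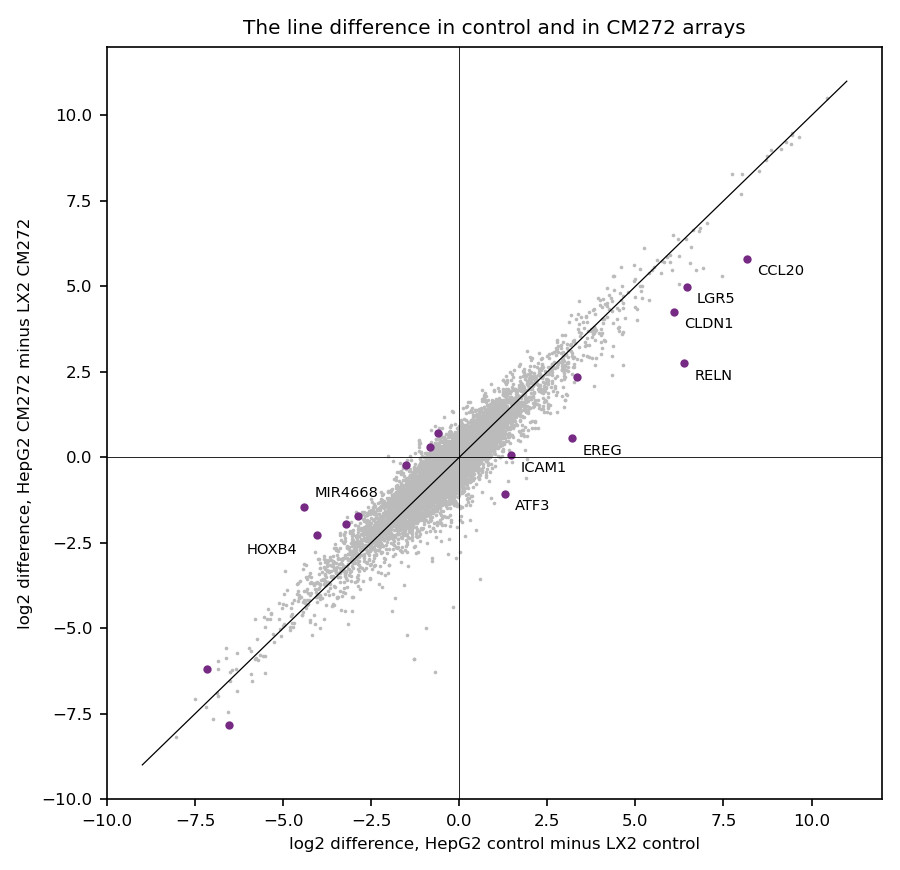
Log2 difference between the lines in the control arrays (x axis) and in the CM272 arrays (y axis) for the 12239 tested genes, with the line of equal differences and, in purple, the 17 named genes whose difference changed between the conditions (limma). Most genes lie along the line, and RELN, EREG, ATF3 and MIR4668 lie far from it.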

How the data were processed

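RNA of 8 human cell line samples was measured on Affymetrix whole-transcript arrays. The deposited log2 values were made by the authors with RMA, per the submitters' processing notes. Those notes do not say whether both lines were normalized together, and background correction settings are not given in the sources used here. No scanner files were used. Of 48416 probe sets, 16098 (33.2%) carried 1 gene symbol and 32318 were left unnamed. A symbol with several probe sets (779 of 14884) was represented by the brightest on average over all arrays.

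Genes above log2 4 in both arrays of at least 1 group were fitted in limma 3.58.1 (lmFit and eBayes, R 4.3.3) with 1 mean per group of line and treatment, so that the 4 groups shared the estimate of the spread. HepG2 control minus LX2 control was the main contrast, and p-values were adjusted by Benjamini-Hochberg over all 12239 tested genes at 0.05. Each group holds 2 arrays, which limits the precision, and an exact permutation test of 2 against 2 cannot go below p = 0.333. Tables and plots were made in Python 3.11.15 with pandas 2.3.3 and matplotlib 3.10.9.

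The fit was tested on simulated data with the size of the control comparison, in 12239 genes. It recovered 2, 34, 48 and 50 of 50 genes changed by log2 0.5, 1, 2 and 4, with 3 false calls. Only these genes were changed there, whereas 58.1% of the tested genes were called in the control comparison. Recovery in a setting where most genes differ was not tested. The members and the 35 gene lists were chosen with earlier results of these data known. The text names the 15 largest called differences in each direction whose arrays do not overlap, up to 5 called members of each list per direction with the largest differences, and 10 genes named in every case (the 6 line markers and EHMT2, EHMT1, DNMT1 and UHRF1). Other names are marked as chosen after their values were seen or are genes in which a named hairpin lies. Alternatives covered the filter, scaling, probe set choice, spread, arrays in the fit, a replicate block and leaving out each array.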

Additional observations from a re-analysis of the deposited data

Results flagged for a closer look

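For 17 named genes the difference between HepG2 and LX2 changed between the control and the CM272 arrays, by limma's interaction term. The change is the control difference minus the CM272 difference, n is 2 arrays per group, and 145 of all tested genes were called in this way.

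Several genes that were higher in the HepG2 controls stood less far above LX2 in the CM272 arrays. RELN went from 6.39 to 2.74 (change 3.65, SE 0.20, adjusted p = 2.56e-05). EREG went from 3.20 to 0.56 (change 2.65, SE 0.39, adjusted p = 0.0181), and CCL20 from 8.15 to 5.81 (change 2.35, SE 0.36, adjusted p = 0.0228). The junction gene CLDN1 went from 6.09 to 4.26 (change 1.84, SE 0.34, adjusted p = 0.0408) and the stem cell receptor LGR5 from 6.45 to 4.99 (change 1.47, SE 0.27, adjusted p = 0.039). For ICAM1 the difference went from 1.46 to 0.06 (change 1.40, SE 0.23, adjusted p = 0.0262), and for HOXD1 from 3.34 to 2.35 (change 0.98, SE 0.18, adjusted p = 0.041). ATF3, a stress-induced factor, turned its direction, from 1.28 to -1.06 (change 2.35, SE 0.30, adjusted p = 0.00915).

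Genes that were lower in the HepG2 controls moved in both ways. The sterol genes lay closer together in the CM272 arrays. INSIG1 went from -7.17 to -6.21 (change -0.97, SE 0.19, adjusted p = 0.0444), HMGCS1 from -3.23 to -1.95 (change -1.28, SE 0.22, adjusted p = 0.0337) and MSMO1 from -2.89 to -1.72 (change -1.17, SE 0.20, adjusted p = 0.0293). The hairpin MIR4668 went from -4.40 to -1.46 (change -2.94, SE 0.46, adjusted p = 0.0232), HOXB4 from -4.03 to -2.27 (change -1.76, SE 0.26, adjusted p = 0.0181) and the imprinted gene MEST from -1.51 to -0.23 (change -1.28, SE 0.19, adjusted p = 0.0181). STC1 lay further apart, from -6.55 to -7.83 (change 1.29, SE 0.22, adjusted p = 0.0302). GATA4 went from -0.83 to 0.31 (change -1.13, SE 0.21, adjusted p = 0.0396) and HADH from -0.60 to 0.70 (change -1.30, SE 0.22, adjusted p = 0.0319), and both crossed 0.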

How the results depend on the processing

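No called difference of a named gene reversed under any alternative, and 265 of 293 named genes stayed on their side of the threshold in every setting in which they were tested. MIRLET7G, which was not called, changed sign (-0.06 to 0.31). Of the genes that lost or gained a call, MIRLET7D had the largest difference (-1.32). With the limma test against a log2 bound of 1 (treat), 574 genes were higher in HepG2 control and 1387 lower. After quantile normalization, 3345 genes were higher in HepG2 in the CM272 arrays. Leaving out each array in turn gave 1670 to 1724 genes higher in HepG2 control and 3961 to 4165 lower, 998 to 1023 and 2485 to 2529 at 2-fold, and 1839 to 2370 and 4332 to 5270 in the CM272 arrays. The lists with more members higher numbered 14 to 15, and those with more lower 19 to 21. The list ranges too come from leaving out each array. In such fits the lone sample is assumed to vary like the other groups. Replicate numbers do not pair the samples (correlations of replicate differences -0.05 to 0.08), and with a replicate block 2138 genes were higher and 4930 lower, and 2202 and 5102 in the CM272 arrays. Under quantile normalization 11 named genes lost their call, and at a common median 9. The TGF-beta and BMP list and the immediate-early list turned to more members higher in HepG2 under both rescalings. The leukocyte list was tied under both. The endothelial list was tied after quantile normalization and had more members higher at a common median. Signals under log2 4 limit the folds of genes found in 1 line.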

Other observations

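The genes here belong to none of the lists and were chosen after their values were seen. ATRX, a chromatin remodeller of heterochromatin and telomeres, read 7.40 and 7.17 in HepG2 against 2.50 and 2.49 in LX2 (4.79, SE 0.17), with the LX2 arrays under the brightness filter. TBX18, a factor of mesothelial and pericyte lineages, read 2.62 and 3.10 against 8.80 and 8.67 (-5.88, SE 0.18), and the membrane receptor GPR180 read 3.03 and 3.19 against 8.23 and 8.22 (-5.11, SE 0.15). The long noncoding RNA MIR31HG read 2.81 and 2.93 against 8.72 and 8.61 (-5.79, SE 0.14). The arrays of the lines did not overlap for any of these genes, which follows from how they were chosen. Over all tested genes, HepG2 arrays lay above LX2 arrays for 27.6% and below them for 55.8%.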
